A study of Homo sapiens with 12 samples.

Results

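The 39 HOX cluster genes were examined in A375, an established human melanoma cell line, as the protein-coding genes whose symbol is HOXA, HOXB, HOXC or HOXD followed by a number. They were 39 of the 56609 symbols in the deposited count table: 11 HOXA genes on chromosome 7, 10 HOXB genes on chromosome 17, 9 HOXC genes on chromosome 12 and 9 HOXD genes on chromosome 2. The study asked how loss of MAPKAPK2, the kinase MK2 that acts downstream of p38, changes the response to inhibition of BET bromodomain proteins. All cells were A375 and all were kept for 48 h in their treatment: wild type with DMSO (the solvent), wild type with 500 nM JQ1 (a BET bromodomain inhibitor), MAPKAPK2 knockout made with CRISPR/Cas9 with DMSO, and MAPKAPK2 knockout with 500 nM JQ1. Each of these 4 groups had 3 libraries of rRNA-depleted total RNA. The titles call the DMSO libraries untreated. Whether the knockout cells are 1 clone or a pool is not given in the sources used here, and neither is whether the replicates were separate cultures, so p-values measure the spread between these libraries, which may be technical.

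HOX genes encode homeodomain transcription factors that give cells their position along the body axis during development. Within a cluster they lie in a row, all read in the same direction, and their order along the chromosome matches the order of their domains from head (low numbers, 3′ end) to tail (high numbers, 5′ end). Genes with the same number in different clusters are paralogues, descended from a common ancestral gene. Active and silent stretches of a cluster are set largely by Trithorax and Polycomb chromatin complexes, and the proteins bind DNA together with cofactors of the TALE class such as PBX and MEIS. Adult cells, melanocytic cells among them, often keep part of this positional expression.

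Library totals ran from 25316899 to 34594295 estimated counts. MAPKAPK2 itself stood at 89.6 and 117 CPM (the count per 1000000 counts of a library after scaling by the trimmed mean of M-values, TMM) in wild-type cells with DMSO and JQ1, and at 12.4 and 14.4 CPM in the knockout, which matched the labels. Of the markers of the melanocytic lineage, SOX10 (437 to 563 CPM as group means), MITF (28.8 to 43.1), S100B (29.3 to 48.7) and S100A1 (26.0 to 54.6) were present. PMEL (0.335 to 1.18) and MLANA (0.689 to 0.780) were low, and the pigment genes TYR and DCT stayed below 0.5 CPM in all 12 libraries. From wild type to knockout with DMSO, MITF went from 43.1 to 28.8 CPM and S100B from 29.3 to 40.0. CDH1, an epithelial marker, was at 0 throughout, and PTPRC, the marker of leukocytes, did not exceed 0.283 CPM. Of 13 markers of other cell types 7 had enough counts. JQ1 lowered 4 of these and raised 1 in wild type, where 16.2% of all genes were called lower and 16.9% higher. In the knockout it lowered 3 and raised 1, where 17.8% of all genes were called lower and 16.7% higher. LUM, a fibroblast marker, went from 3.86 to 0.504 CPM and from 4.37 to 0.631 CPM in the same order. The part of these markers in the HOX results was not tested. One library, replicate 3 of the knockout with JQ1, stood apart from its 2 partners: a chi-square statistic per degree of freedom over genes was 26.1 and 27.5 against them, and 3.35 to 7.64 in every other pair of replicates.

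Values after ± are SDs over n = 3 libraries unless called SE. The 4 clusters together made up 344 ± 4.61 CPM in wild-type cells with DMSO, 264 ± 13.6 with JQ1, 383 ± 19.7 in the knockout with DMSO and 264 ± 24.9 in the knockout with JQ1. HOXB contributed most, at 173 ± 1.99 CPM in wild-type cells with DMSO, followed by HOXC at 85.2 ± 2.24, HOXA at 57.9 ± 0.542 and HOXD at 27.5 ± 1.56. With JQ1 the wild-type sums were 70.2% of the DMSO mean for HOXB, 67.3% for HOXD, 83.0% for HOXA and 89.2% for HOXC. In the knockout they were 64.4%, 61.7%, 75.5% and 77.7% in the same order. HOXB was the one cluster whose sum was higher in the knockout than in wild type with DMSO in all 3 libraries (200 to 224 against 171 to 174 CPM).

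To compare genes with each other, the CPM was divided by the length in kilobases (kb) of the longest transcript linked to RefSeq. On this scale HOXB2, a hindbrain patterning gene, had the highest level in wild-type cells with DMSO, at 21.9 ± 0.0407 CPM per kb. HOXB3 (11.9 ± 0.229), HOXB7 (10.97 ± 0.943), HOXA5 (9.95 ± 0.422) and HOXB6 (9.45 ± 0.605) followed. Among these, genes adjacent in the order overlapped, so adjacent ranks are not separated. HOXB3 lay wholly above HOXA5 and HOXB6, and HOXB7 wholly above HOXB6. HOXB8 (8.28 ± 0.335), HOXC10 (8.18 ± 0.559) and HOXB9 (8.16 ± 0.519) likewise overlapped. A middle band ran from HOXC4 (7.34 ± 0.883) to HOXA2 (0.795 ± 0.0413). Below it came HOXD10 (0.666 ± 0.0754), HOXD4 (0.626 ± 0.106), HOXA13 (0.461 ± 0.0825) and HOXA11 (0.306 ± 0.164). The lowest levels were those of HOXD11 (0.290 ± 0.0716), HOXD1 (0.201 ± 0.00698), HOXD3 (0.176 ± 0.102), HOXD12 (0.137 ± 0.0989), HOXA9 (0.136 ± 0.0312) and HOXA7 (0.108 ± 0.0616), and HOXB1 had no count in these 3 libraries. HOXA7 and HOXA9, the latter known for its role in leukaemia, thus lay together between HOXA6 (3.10 ± 0.343) and HOXA10 (4.97 ± 0.440), both at much higher levels. HOXD8 (3.37 ± 0.133), HOXD9 (4.63 ± 0.173) and HOXD13 (3.90 ± 0.372) were the HOXD genes above 1 CPM per kb.

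**Figure D1:**
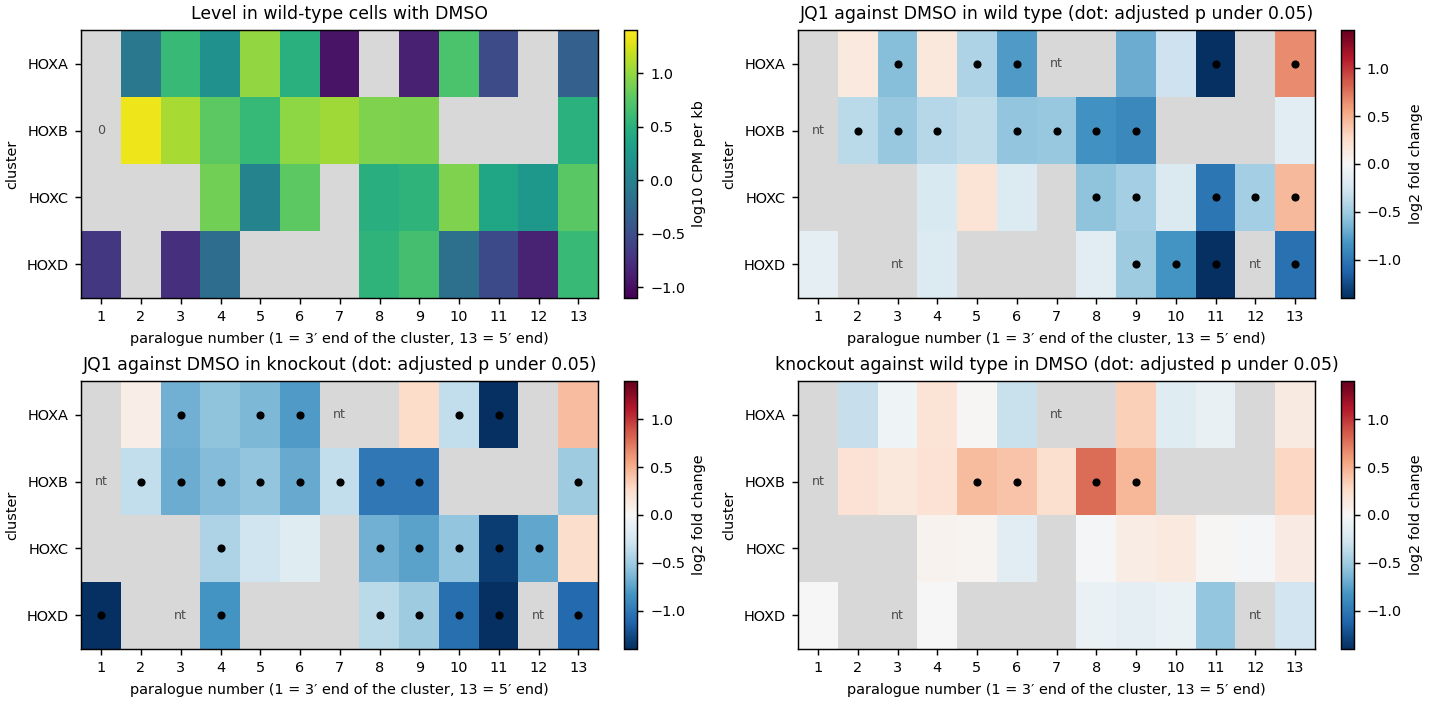
Maps of HOX genes by cluster (rows) and paralogue number (columns). The first map gives the log10 level in CPM per kb in wild-type cells with DMSO (HOXB1 is marked 0), and the others give log2 fold changes in 3 comparisons on a colour scale that saturates at its ends. Grey without a mark means that no value is shown, nt that the gene had too few counts to be tested, and a dot an adjusted p under 0.05. HOXB2 is the brightest field of the level map, and with JQ1 most fields are blue in both genotypes; in wild type HOXA13 and HOXC13 are red with a dot.

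The first comparison asked how JQ1 changed the HOX genes in wild-type cells. Of the 35 HOX genes with enough counts to be tested, 19 were lower with JQ1 (54.3%) and 3 were higher. The 19 include HOXA11 and HOXD11, which had enough counts to be tested only through their DMSO libraries. Their calls could hardly have gone the other way. Over all 21698 genes tested, 16.2% were called lower and 16.9% higher at an adjusted p under 0.05 (edgeR's quasi-likelihood test, Benjamini-Hochberg adjustment over all genes). The median log2 fold change was -0.44 over the HOX genes and -0.03 over all genes. By cluster, 7 of 9 tested HOXB genes fell, 4 of 10 HOXA, 4 of 9 HOXC and 4 of 7 HOXD. HOXA13 and HOXC13 were among the 3 that rose. By paralogue number, 3 of 6 genes numbered 1 to 3 fell, 7 of 14 numbered 4 to 8 and 9 of 15 numbered 9 to 13.

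In knockout cells JQ1 lowered 27 of the 35 tested HOX genes (77.1%) and raised none at the threshold, where 17.8% of all genes were called lower and 16.7% higher. The 27 again include HOXA11 and HOXD11, which had enough counts to be tested only through DMSO libraries. The median was -0.61 over the HOX genes and -0.0035 over all genes. All 9 tested HOXB genes fell, all 7 HOXD, 6 of 9 HOXC and 5 of 10 HOXA. The 19 genes lower in wild type were all among the 27 lower in the knockout. These contrasts share no library, but they share 1 estimate of spread per gene. How often such calls repeat over all genes was not counted. The other 8 were HOXA10, HOXB5, HOXB13, HOXC4, HOXC10, HOXD1, HOXD4 and HOXD8. A difference between the genotypes in the JQ1 response was tested with an interaction term and was called for none of the 35. Among all genes 0.134% were called. Of the HOX genes, 3 had an unadjusted p under 0.05 (HOXC10, HOXB13 and HOXD1), the smallest adjusted p was 0.448, and DESeq2 called none either, with 2 at an unadjusted p under 0.05. The interaction estimates were below 0 for 30 of the 35, with a median of -0.20 against -0.0061 over all genes. Without knockout JQ1 replicate 3, the library that stood apart, 8 had an unadjusted p under 0.05 and none was called.

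Of the 39 genes, 28 had estimated counts that were not whole numbers in some library, since reads that match several transcripts are shared out, and HOX transcripts overlap each other and antisense RNAs. The tested genes with whole counts in all libraries numbered 9, of which 6 fell and 1 rose with JQ1 in wild type and 8 fell in the knockout. Of the 26 others, 13 fell and 2 rose in wild type and 19 fell in the knockout. Over all genes, 16.2% were called lower and 16.9% higher in wild type, and 17.8% lower in the knockout. Whole and shared counts were not tested against each other.

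**Figure D2:**
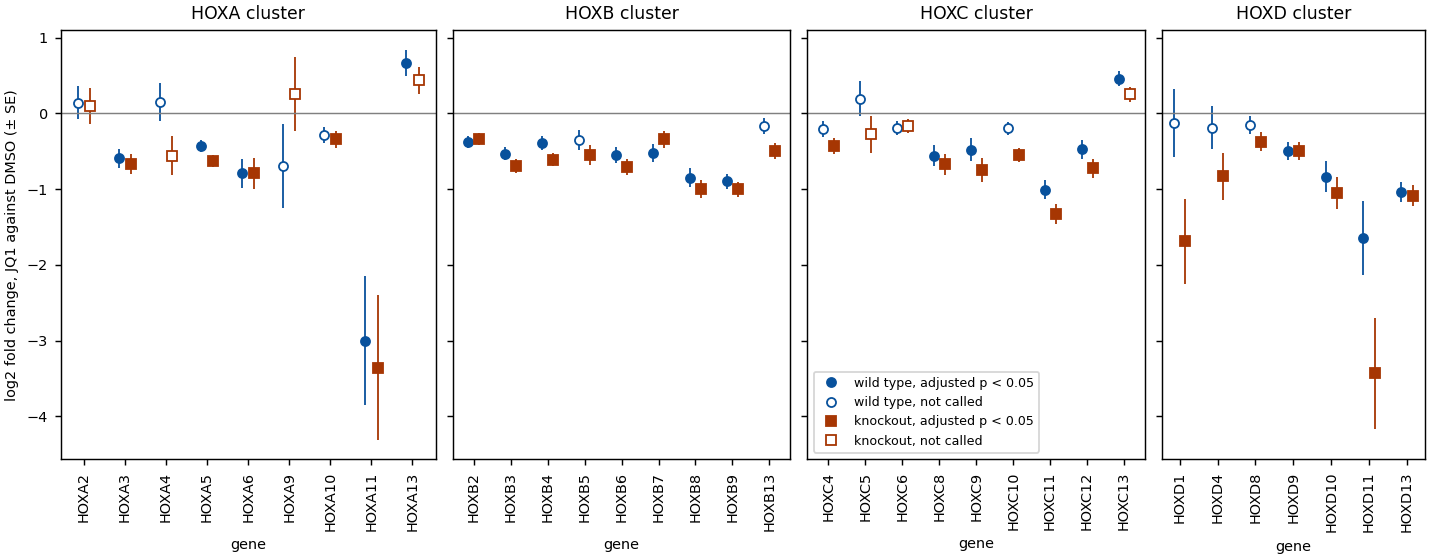
Log2 fold change of JQ1 against DMSO for tested HOX genes, by cluster and in order of paralogue number, in wild type (circles) and knockout (squares). Bars are ± 1 SE, and filled symbols mark an adjusted p under 0.05. The 2 genotypes lie close together for most genes, all HOXB genes lie below 0, and HOXA9, HOXA11, HOXD1 and HOXD11 have the longest bars.

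In the HOXB cluster the largest falls were those of HOXB9 and HOXB8, genes of the trunk. HOXB9 measured 19.6, 22.3 and 21.2 CPM in wild-type cells with DMSO and 12.4, 11.2 and 10.2 with JQ1. In the knockout it measured 28.8, 28.5 and 29.7 with DMSO and 12.8, 14.5 and 16.0 with JQ1. Every JQ1 library lay below every DMSO library, and the log2 fold change was -0.90 (SE 0.0962, adjusted p = 5.63e-06) in wild type and -1.004 (SE 0.0947, adjusted p = 1.39e-06) in the knockout. HOXB8 measured 15.4, 15.5 and 14.4 CPM in wild type with DMSO and 8.98, 8.87 and 7.34 with JQ1. Its knockout values were 23.2, 29.5 and 25.1 with DMSO and 11.2, 13.1 and 14.6 with JQ1. The groups again did not overlap within a genotype, with log2 fold changes of -0.85 (SE 0.120, adjusted p = 7.23e-05) and -1.001 (SE 0.115, adjusted p = 9.47e-06).

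The other HOXB genes fell by less. HOXB3 had 31.5 ± 0.605 CPM in wild type with DMSO and 21.8 ± 0.926 with JQ1, which is -0.53 on the log2 scale (SE 0.0870, adjusted p = 2.56e-04), and -0.70 (SE 0.0876, adjusted p = 2.18e-05) in the knockout. HOXB6 changed by -0.55 (SE 0.107, adjusted p = 0.0011) and -0.71 (SE 0.106, adjusted p = 1.04e-04), from 15.7 ± 1.00 CPM in wild type with DMSO. HOXB7, known for its expression in melanoma, changed by -0.53 (SE 0.117, adjusted p = 0.00287) and -0.34 (SE 0.115, adjusted p = 0.0309), from 15.0 ± 1.29 CPM. Its knockout call was lost under 5 of 19 alternatives (without knockout DMSO 2, knockout DMSO 3, knockout JQ1 1 or knockout JQ1 2, and with only the groups compared; adjusted p up to 0.139). HOXB4, a gene best known for its role in blood stem cells, and HOXB2 had smaller changes. HOXB4 changed by -0.40 (SE 0.0908, adjusted p = 0.00354) and -0.61 (SE 0.0913, adjusted p = 1.04e-04), from 21.9 ± 0.902 CPM. HOXB2 changed by -0.37 (SE 0.0789, adjusted p = 0.00198) and -0.34 (SE 0.0787, adjusted p = 0.00357), from 34.2 ± 0.0636 CPM. HOXB5 and HOXB13, the latter a gene of the prostate and hindgut, passed the threshold in the knockout alone. HOXB5 (7.65 ± 0.395 CPM in wild type with DMSO) had -0.35 (adjusted p = 0.0513) in wild type and -0.55 (SE 0.129, adjusted p = 0.00384) in the knockout. HOXB13 (10.8 ± 0.541 CPM) had -0.16 (adjusted p = 0.265) and -0.50 (SE 0.106, adjusted p = 0.00208).

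**Figure D3:**
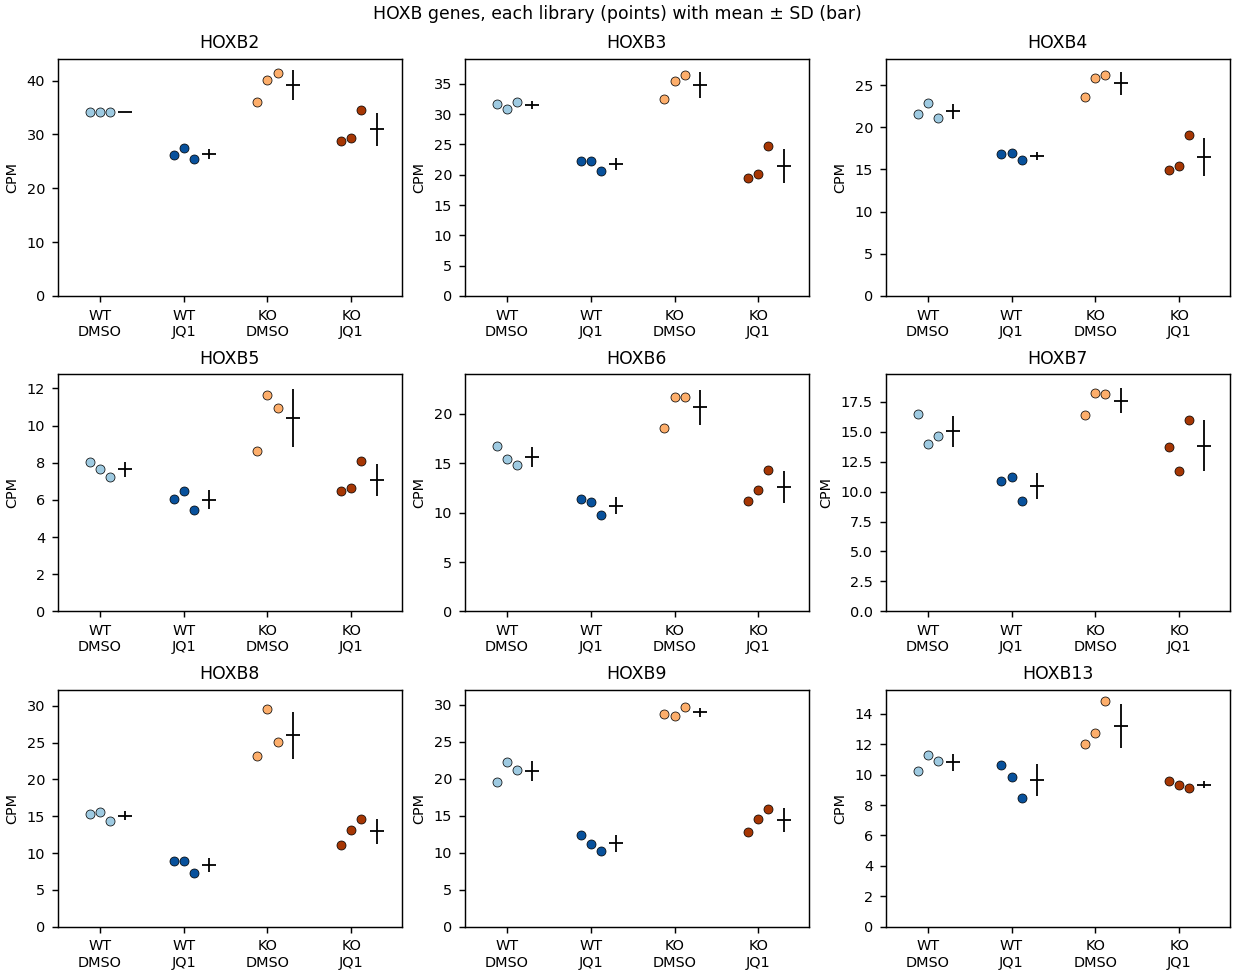
CPM of the 9 tested HOXB genes in each of the 12 libraries (points, 3 per group), with the mean ± SD beside them; each axis starts at 0. JQ1 groups lie below their DMSO groups apart from HOXB13 in wild type. For every gene but HOXB7 the knockout with DMSO lies wholly above wild type with DMSO.

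In the HOXC cluster the response split at the 5′ end. HOXC11, a gene of posterior and hindlimb patterning, measured 8.52, 7.05 and 7.92 CPM in wild type with DMSO and 4.15, 4.08 and 3.46 with JQ1. In the knockout it measured 8.34, 7.42 and 8.07 with DMSO and 3.05, 2.76 and 3.61 with JQ1. The levels with JQ1 were 49.6% and 39.7% of those with DMSO, with no overlap (log2 fold change -1.01, SE 0.126, adjusted p = 2.47e-05 in wild type; -1.33, SE 0.131, adjusted p = 2.1e-06 in the knockout). HOXC13, the end gene of the cluster and a regulator of hair and nail keratins, did the opposite. It measured 13.6, 13.7 and 14.3 CPM in wild type with DMSO and 19.1, 19.6 and 18.4 with JQ1. All 3 JQ1 libraries were higher (log2 fold change 0.46, SE 0.0968, adjusted p = 0.00209). In the knockout HOXC13 measured 14.3, 15.0 and 15.9 CPM with DMSO and 16.1, 16.7 and 21.0 with JQ1. These did not overlap either, but the difference of 0.25 missed the threshold (adjusted p = 0.0605), and the library at 21.0 is the one that stood apart. Without knockout JQ1 replicate 1 or without replicate 2, HOXC13 was called higher in the knockout, and without replicate 3 the difference was 0.12 (adjusted p = 0.293).

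HOXC12, between these 2 genes, fell from 5.71 ± 0.399 to 4.11 ± 0.239 CPM in wild type (log2 fold change -0.48, SE 0.1253, adjusted p = 0.00881) and by 0.73 on the log2 scale in the knockout (adjusted p = 4.75e-04). HOXC8 (5.56 ± 0.344 CPM in wild type with DMSO) changed by -0.56 (SE 0.140, adjusted p = 0.0061) and -0.68 (SE 0.143, adjusted p = 0.00192). HOXC9 (5.10 ± 0.306 CPM) changed by -0.48 (SE 0.153, adjusted p = 0.0256) and -0.75 (SE 0.156, adjusted p = 0.00161), and its wild-type call was lost without any 1 of 4 libraries (wild-type DMSO 1 or 2, wild-type JQ1 1 or 3; adjusted p up to 0.0833). HOXC10 and HOXC4 passed in the knockout alone. HOXC10 (15.8 ± 1.08 CPM) had -0.20 (adjusted p = 0.095) in wild type and -0.55 (SE 0.0888, adjusted p = 1.95e-04) in the knockout. HOXC4 (12.2 ± 1.47 CPM) had -0.21 (adjusted p = 0.131) and -0.43 (SE 0.102, adjusted p = 0.00445). HOXC5 and HOXC6 passed in neither genotype. HOXC6 (17.2 ± 0.963 CPM) had -0.19 and -0.17, and HOXC5 (1.87 ± 0.126 CPM) had 0.19 and -0.28.

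In the HOXD cluster, HOXD13, the digit and genital patterning gene at its 5′ end, measured 8.49, 9.67 and 8.05 CPM in wild type with DMSO and 4.90, 4.27 and 3.55 with JQ1. In the knockout it measured 7.41, 7.14 and 7.13 with DMSO and 3.24, 3.12 and 3.80 with JQ1. The JQ1 groups lay wholly below, at 48.5% and 47.1% of DMSO (log2 fold change -1.04, SE 0.129, adjusted p = 2.3e-05; -1.09, SE 0.135, adjusted p = 1.98e-05). HOXD10 fell from 1.32 ± 0.150 to 0.741 ± 0.105 CPM in wild type (log2 fold change -0.84, SE 0.203, adjusted p = 0.00523) and from 1.24 ± 0.108 to 0.597 ± 0.0455 in the knockout (-1.05, SE 0.216, adjusted p = 0.00148). HOXD9 changed by -0.50 in both (SE 0.119, adjusted p = 0.0048; SE 0.122, adjusted p = 0.00556), from 8.66 ± 0.324 CPM. HOXD8 (6.46 ± 0.255 CPM) had -0.16 (adjusted p = 0.341) in wild type and -0.37 (SE 0.123, adjusted p = 0.0284) in the knockout. This knockout call was lost without knockout DMSO 2, knockout JQ1 1 or knockout JQ1 2 (adjusted p up to 0.115). It was also lost without the low-count filter and with only the groups compared.

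The other HOXD genes rested on few reads. HOXD11, which with HOXA11 patterns the forearm, had 44 counts in all in wild type with DMSO and 13 with JQ1, 31.3% after scaling (95% counting interval 15.5% to 59.2%). In the knockout it had 27 and 2 counts, 7.98% (0.919% to 31.7%). These intervals and those for HOXA11 cover counting error only. The fitted log2 fold changes were -1.64 (SE 0.486, adjusted p = 0.0173) and -3.43 (SE 0.731, adjusted p = 0.00196), which at such counts depend on the prior count, and the wild-type call was lost without wild-type DMSO 1 or any 1 of the wild-type JQ1 libraries. The knockout value of HOXD11 was -6.24 without knockout JQ1 2. HOXD11 had enough counts to be tested only through its DMSO libraries, so its calls could hardly have gone the other way. With only the knockout groups compared, HOXD11 and HOXD1 had too few counts to be tested. HOXD1 had 0.396 ± 0.0138 CPM in wild type with DMSO and 0.359 ± 0.192 with JQ1 (-0.12, adjusted p = 0.867). In the knockout it fell from 0.397 ± 0.114 to 0.113 ± 0.0959 CPM (-1.69, SE 0.557, adjusted p = 0.0284). HOXD4 (0.916 ± 0.155 CPM in wild type with DMSO) had -0.19 (adjusted p = 0.652) and -0.83 (SE 0.307, adjusted p = 0.0477). Neither knockout call was firm: that of HOXD1 was lost without any 1 of 4 knockout libraries (adjusted p up to 0.103; the value was -2.66 without knockout JQ1 3), and that of HOXD4 under 14 of 19 alternatives (adjusted p up to 0.244).

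In the HOXA cluster the gene at the 5′ end was higher with JQ1 in wild-type cells, while several genes inside the cluster fell. HOXA13, at the 5′ end and active in limb, hindgut and genital development, measured 2.53, 2.59 and 1.84 CPM in wild type with DMSO and 3.80, 3.27 and 3.90 with JQ1. It was higher in all 3 (log2 fold change 0.67, SE 0.173, adjusted p = 0.00828). Its knockout values were 2.50, 2.92 and 2.14 with DMSO and 3.27, 2.96 and 3.96 with JQ1, which came close to overlapping (0.44, adjusted p = 0.0697). Without knockout DMSO replicate 2 HOXA13 was called higher in the knockout, and without knockout JQ1 replicate 3, the library that stood apart, the difference was 0.31 (adjusted p = 0.241).

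HOXA5, a gene of lung development, had 16.5 ± 0.699 CPM in wild type with DMSO and 12.2 ± 0.560 with JQ1 (log2 fold change -0.44, SE 0.0782, adjusted p = 5.63e-04), and changed by -0.63 in the knockout (SE 0.0797, adjusted p = 2.17e-05). HOXA3, needed for thymus and parathyroid, had 13.2 ± 0.285 and 8.74 ± 1.41 CPM (-0.59, SE 0.128, adjusted p = 0.00227), and changed by -0.67 (SE 0.130, adjusted p = 9.53e-04) in the knockout. HOXA6 changed by -0.79 in both genotypes (SE 0.194, adjusted p = 0.00539; SE 0.205, adjusted p = 0.00751), from 3.06 ± 0.339 CPM. HOXA10, a gene of uterus and limb, reached the threshold in the knockout alone. It had 12.6 ± 1.12 and 10.3 ± 0.635 CPM in wild type (-0.29, adjusted p = 0.057) and -0.34 in the knockout (SE 0.112, adjusted p = 0.0267). The knockout call was lost without knockout DMSO 1, knockout DMSO 2 or knockout JQ1 1, and with only the groups compared (adjusted p up to 0.134). HOXA11 had 72 counts in wild type with DMSO and 8 with JQ1, 11.8% (4.9% to 24.5%), and 59 and 5 in the knockout, 9.13% (2.86% to 22.5%). Within each DMSO group its 3 libraries ranged widely (0.283 to 1.02 and 0.275 to 0.866 CPM), but all lay above the JQ1 libraries (fitted log2 fold changes -3.01, SE 0.852, adjusted p = 0.0137, and -3.36, SE 0.952, adjusted p = 0.0129). The wild-type call was lost without wild-type DMSO 3, wild-type JQ1 1 or wild-type JQ1 2 (adjusted p up to 0.0617). HOXA11 had enough counts to be tested only through its DMSO libraries, so its calls could hardly have gone the other way. With only the groups compared it was not tested in either genotype. Over the alternatives the fitted fold change of HOXA11 ran from -5.08 (without wild-type JQ1 3) to -2.52 in wild type and from -7.35 (without knockout JQ1 1) to -2.71 in the knockout. HOXA2 (1.44 ± 0.0748 CPM; 0.14 and 0.09), HOXA4 (2.51 ± 0.278 CPM; 0.15 and -0.56) and HOXA9 (0.280 ± 0.0643 CPM; -0.69 and 0.25) passed in neither genotype.

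**Figure D4:**
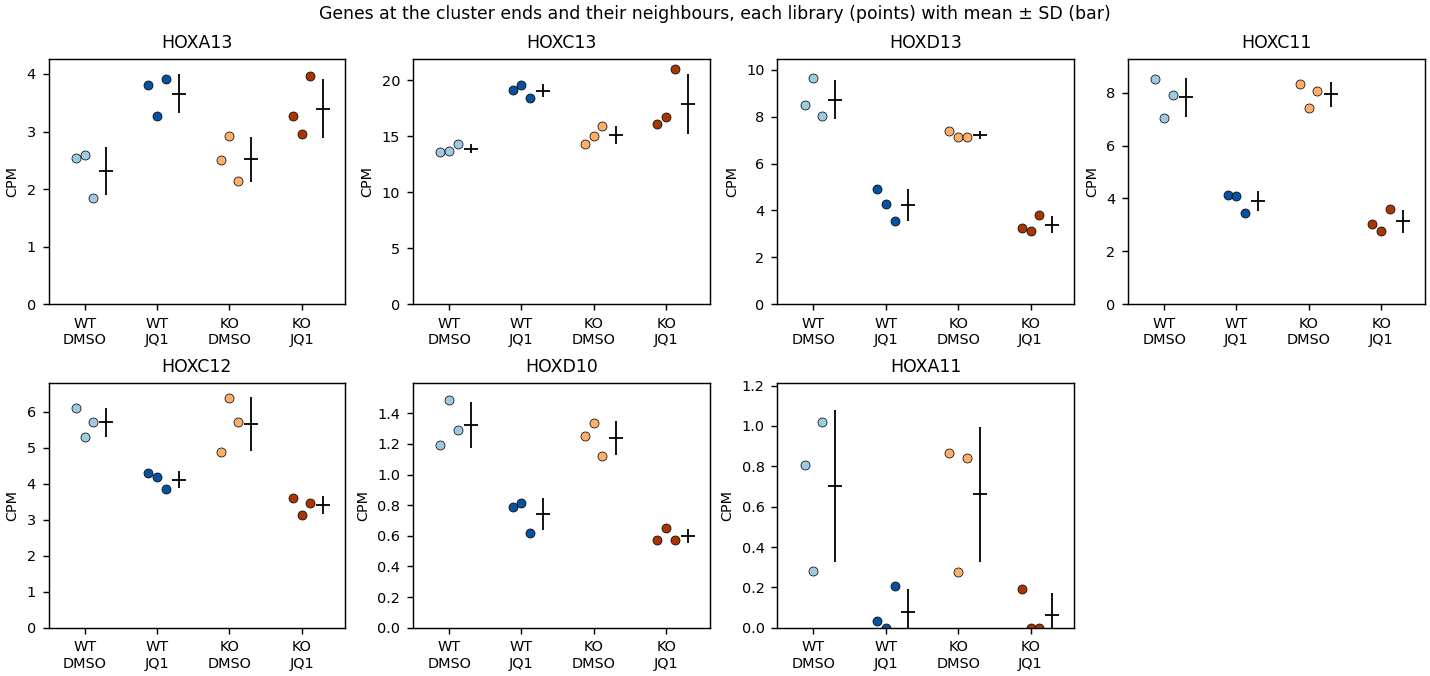
CPM of 7 genes in each of the 12 libraries (points), with the mean ± SD beside them; each axis starts at 0. HOXA13 and HOXC13, which end their clusters, are higher with JQ1, and the other 5 genes, HOXD13 at the end of its cluster among them, are lower in both genotypes.

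The 4 genes without a test had few reads. HOXA7 had 22 counts in wild type with DMSO, 7 with JQ1, and 6 and 4 in the knockout. HOXD12 had 17, 10, 9 and 5 in the same order. HOXD3 had 38 counts in wild type with DMSO and 17 with JQ1, the latter nearly all from replicate 2 (0.557 CPM), and 4 and 0 in the knockout. HOXB1 had a read or more in 2 libraries of wild type with JQ1, at 0.0371 and 0.0296 CPM, and none elsewhere.

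Paralogues were compared through the ratio of their counts within each library, a measure that needs no scaling of libraries where counts are well above 0. For each of the 36 pairs of tested paralogues, the change of the log2 ratio with JQ1 (0.5 added to each count) was averaged over the genotypes and tested by an exact two-sided permutation of JQ1 and DMSO within each genotype, with 400 arrangements and 0.005 as the smallest p they can give. The response differed for 21 of 36 pairs at a Benjamini-Hochberg adjusted p under 0.05 over the pairs. In group 13 the response of HOXA13 exceeded that of HOXD13 by 1.62 on the log2 scale (p = 0.005, adjusted p = 0.015, exact permutation), and that of HOXC13 exceeded that of HOXD13 by 1.42 (p = 0.005, adjusted p = 0.015, exact permutation). HOXA13 and HOXC13, both higher with JQ1 in wild type, differed by 0.20 (p = 0.16, adjusted p = 0.24, exact permutation), with differences of 0.21 in wild type and 0.19 in the knockout. HOXB13 lay between, 0.74 above HOXD13 and 0.68 below HOXC13 (each p = 0.005, adjusted p = 0.015, exact permutation).

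In group 11 HOXA11 and HOXD11 had few counts, and 0 in some JQ1 libraries, where the ratio depends on the added 0.5 and on depth. HOXA11 fell by 2.50 more than HOXC11 (p = 0.025, adjusted p = 0.0429, exact permutation). HOXD11 fell by 1.28 more than HOXC11 (p = 0.01, adjusted p = 0.0212, exact permutation), an average of 0.55 in wild type and 2.01 in the knockout. HOXA11 and HOXD11 differed by 1.22 (p = 0.235, adjusted p = 0.313, exact permutation). In group 8, HOXB8 fell by more than HOXD8 (0.66) and more than HOXC8 (0.31), both with p = 0.005 and adjusted p = 0.015 by exact permutation. In group 9, HOXB9 fell by more than HOXD9 (0.45, adjusted p = 0.015) and HOXC9 (0.34, adjusted p = 0.027), while HOXC9 and HOXD9 differed by 0.11 (adjusted p = 0.31, exact permutation). In group 10, HOXD10 fell by more than HOXA10 (0.62) and HOXC10 (0.55), both with adjusted p = 0.015, and HOXA10 and HOXC10 differed by 0.07 (adjusted p = 0.658, exact permutation). HOXA3 and HOXB3 differed by 0.01 (adjusted p = 0.874, exact permutation), with -0.07 in wild type and 0.04 in the knockout. In group 6 both HOXA6 and HOXB6 fell by more than HOXC6, by 0.62 and 0.45 (each adjusted p = 0.015, exact permutation). A p that misses the threshold does not show that 2 paralogues responded alike.

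Promoter sequences were available from RefSeq (GRCh38.p14) for 20 of the 39 genes, as the 250 bases before the annotated start. Those of HOXA13 and HOXD13 are shown because their responses to JQ1 were the furthest apart in the paralogue group with opposite directions. Capitals mark the CCAAT box (CCAAT or its reverse complement), the E-box CACGTG and the TATA-box letters TATAAA on either strand, whose matches on the 2 strands can overlap. HOXA13 is at chr7:27200092-27200341 on the minus strand and HOXD13 at chr2:176092471-176092720 on the plus strand, both written 5′ to 3′ in the direction of the gene.
HOXA13: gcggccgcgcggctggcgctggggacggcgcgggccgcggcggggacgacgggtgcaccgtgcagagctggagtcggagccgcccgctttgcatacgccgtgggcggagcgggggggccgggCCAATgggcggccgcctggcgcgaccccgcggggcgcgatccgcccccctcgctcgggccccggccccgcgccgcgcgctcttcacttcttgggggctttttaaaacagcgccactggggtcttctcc
HOXD13: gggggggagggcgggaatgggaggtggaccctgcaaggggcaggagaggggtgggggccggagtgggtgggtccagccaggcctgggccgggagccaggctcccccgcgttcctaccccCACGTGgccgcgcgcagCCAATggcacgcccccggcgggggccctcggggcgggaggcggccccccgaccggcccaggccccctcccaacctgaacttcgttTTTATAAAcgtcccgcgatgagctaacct

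Both windows hold a CCAAT, and only that of HOXD13 holds CACGTG and TATAAA. HOXA13 has 40 CpG dinucleotides and HOXD13 has 21. Among the 20 HOX windows, 17 hold CCAAT (85.0%, against 33.0% of 27305 RefSeq promoter windows of the same length), 7 hold CACGTG (35% against 6.49%), 4 hold TATAAA (20.0% against 11.1%) and 14 hold TAAT, the core letters bound by homeodomains (70.0% against 48.2%), each counted on both strands. The median number of CpG dinucleotides was 20.5 over the HOX windows and 11 over all. HOXC4 and HOXC5 share a single window and are counted for both. They were the only HOXC genes with a window, and HOXB1 was the only HOXB gene. The shares therefore describe mainly HOXA and HOXD promoters. A match describes letters and does not show that a factor binds there.

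The knockout was then compared with wild type without drug. Of the 35 tested HOX genes 4 were higher in the knockout with DMSO and none lower, where 3.47% of all genes were called higher and 4.44% lower. All 4 were HOXB genes: HOXB5, HOXB6, HOXB8 and HOXB9. The median over the 9 tested HOXB genes was a log2 fold change of 0.29, with all 9 above 0, while the medians of HOXA (-0.08), HOXC (0.04) and HOXD (-0.09) lay near the -0.005 of all genes. HOXB8, whose values are given above, was at 26.0 ± 3.21 CPM in the knockout against 15.1 ± 0.611, which is 172% of wild type, without overlap (log2 fold change 0.78, SE 0.113, adjusted p = 4.54e-04). HOXB9 was at 29.01 ± 0.622 against 21.1 ± 1.34 CPM (0.46, SE 0.0919, adjusted p = 0.00491).

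HOXB6 measured 16.8, 15.4 and 14.8 CPM in wild type and 18.6, 21.7 and 21.7 in the knockout (0.40, SE 0.104, adjusted p = 0.0273). HOXB5 measured 8.05, 7.65 and 7.26 in wild type and 8.62, 11.6 and 10.9 in the knockout (0.44, SE 0.127, adjusted p = 0.0468). In both genes replicate 1 was the lowest of the knockout and the groups did not overlap. Both calls were lost without knockout DMSO 2, knockout DMSO 3, wild-type DMSO 2 or wild-type DMSO 3, and with the replicate number as a block. Each of these left 2 genes called. The call of HOXB5 was lost under 11 of 19 alternatives in all. HOXB2 (0.20, adjusted p = 0.161), HOXB3 (0.14, adjusted p = 0.4), HOXB4 (0.20, adjusted p = 0.217), HOXB7 (0.23, adjusted p = 0.3) and HOXB13 (0.29, adjusted p = 0.124) did not pass. Of the genes listed as flanking HOXB, whose distances were not measured, SNX11 and CALCOCO2 had log2 fold changes of 0.03 each (adjusted p = 0.928 and 0.849). Of the 13 tested genes listed as flanking any cluster, 2 were higher in the knockout with DMSO (3.47% of all genes). Both were listed for HOXC: CBX5 (0.23, adjusted p = 0.00553) and COPZ1 (0.21, adjusted p = 0.0162).

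With JQ1 in both arms, 3 HOX genes were higher in the knockout and none lower, where 3.01% of all genes were called higher and 5.56% lower. HOXB8 was at 12.9 ± 1.71 CPM against 8.40 ± 0.919 in wild type (log2 fold change 0.63, SE 0.121, adjusted p = 0.00401), HOXB9 at 14.4 ± 1.60 against 11.3 ± 1.12 (0.36, SE 0.0984, adjusted p = 0.0358) and HOXB7 at 13.8 ± 2.13 against 10.5 ± 1.05 (0.41, SE 0.118, adjusted p = 0.0466). In each the groups did not overlap. The highest knockout value of all 3 came from replicate 3, the library that stood apart. Without it HOXB8 remained the one gene called higher and HOXD1 was called lower. HOXB9 was also lost without knockout JQ1 2, wild-type JQ1 2 or wild-type JQ1 3. The same held for HOXB9 with only the groups compared and with the replicate number as a block. HOXB7 was lost under 12 of 19 alternatives. HOXB8 and HOXB9 were called in both comparisons of genotype, which share no library but share the estimate of spread per gene. Fold changes were below 0 for 28 of the 35 HOX genes here, with a median of -0.17 against -0.0015 over all genes. They were below 0 for all 7 HOXD genes (median -0.32), all 9 HOXC genes (median -0.17) and 9 of 10 HOXA genes (median -0.21), none of which passed.

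The noncoding RNAs of the clusters were taken as a list of 24, of which 14 had enough counts. With JQ1 6 of them were lower in wild type and 7 in the knockout, where 16.2% and 17.8% of all genes were called lower. None was higher, where 16.9% and 16.7% of all genes were. Their medians were -0.42 and -0.48. HOXB-AS1, an antisense RNA of the HOXB cluster, went from 5.97 to 3.25 CPM in wild type (log2 fold change -0.87, adjusted p = 1.58e-04) and from 6.53 to 3.61 in the knockout (-0.85, adjusted p = 1.66e-04). HOXA-AS2 changed by -0.65 (adjusted p = 0.00424) and -0.50 (adjusted p = 0.0205). HOXA11-AS changed by -1.94 (adjusted p = 0.0015) and -1.50 (adjusted p = 0.00748), beside the fall of HOXA11, with which it overlaps on the opposite strand. Whether counting used the strand is not given in the sources used here, so reads of these 2 genes may not be told apart. HOTAIR, the RNA from between HOXC11 and HOXC12, had -0.38 (adjusted p = 0.358) in wild type and -0.81 (adjusted p = 0.048) in the knockout. None of the 14 was called between the genotypes, HOXB-AS3 included (0.22 with DMSO, adjusted p = 0.429).

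Of the 9 TALE cofactor genes, 3 were lower and 1 higher with JQ1 in wild type, and 5 lower and 1 higher in the knockout, where all genes had 16.2% lower and 16.9% higher in wild type and 17.8% and 16.7% in the knockout. MEIS3 fell by 0.96 (adjusted p = 1.34e-04) and by 1.396 (adjusted p = 6.28e-06) on the log2 scale, and PBX2 by 0.43 (adjusted p = 2.88e-04) and 0.65 (adjusted p = 5.79e-06). PKNOX2 rose, from 5.44 to 10.3 CPM in wild type (0.93, adjusted p = 7.62e-05) and from 5.19 to 10.6 in the knockout (1.04, adjusted p = 2.68e-05). Of 13 related homeobox genes outside the clusters, the ParaHox genes among them, 5 had enough counts. None of these passed with JQ1 in wild type, EN1 was lower in the knockout (-0.56, adjusted p = 0.0425), and PDX1 was lower in the knockout than in wild type with DMSO (-2.49, adjusted p = 0.0282, at under 0.52 CPM in every library).

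Of 27 Polycomb genes, 6 were higher and 8 lower with JQ1 in wild type (16.9% higher and 16.2% lower over all genes), and 5 higher and 7 lower in the knockout (16.7% and 17.8% over all genes). RBBP4, a histone-binding subunit, fell in wild type (-0.35, adjusted p = 4.8e-04) and had -0.15 in the knockout (adjusted p = 0.068). CBX2 fell in both (-0.47, adjusted p = 0.00138; -0.48, adjusted p = 0.00116). PHC2 rose (0.43, adjusted p = 0.00124; 0.49, adjusted p = 3.4e-04), PHF19 fell (-0.36, adjusted p = 0.00279; -0.54, adjusted p = 1.04e-04), and the methyltransferase EZH2 had -0.08 and -0.01 (adjusted p = 0.359 and 0.936). Of 15 Trithorax, H3K27 demethylase and boundary genes, 4 were higher in wild type (16.9% over all genes) and 3 in the knockout (16.7% over all genes), with none lower, DPY30 (0.40, adjusted p = 3.79e-04; 0.28, adjusted p = 0.00576) and ASH2L (0.35, adjusted p = 2.69e-04; 0.23, adjusted p = 0.00572) among them. KMT2A, the Trithorax methyltransferase known to act on HOX genes, had 0.03 and -0.14 with JQ1 (adjusted p = 0.741 and 0.106) and was lower in the knockout than in wild type with JQ1 (-0.37, adjusted p = 0.00178).

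Genes flanking the clusters were listed from general knowledge as 19 symbols, of which 13 were tested. Their distances from the clusters were not measured, and they need not be the nearest genes. With JQ1 4 were higher and 3 lower in wild type, where 16.9% of all genes were called higher and 16.2% lower. In the knockout 4 were higher and 5 lower, where 16.7% of all genes were called higher and 17.8% lower. The medians were 0.08 and -0.10 where the HOX genes had -0.44 and -0.61. Of those listed for HOXB, CALCOCO2 (0.32, adjusted p = 5.09e-04, and 0.19, adjusted p = 0.0199) and SNX11 (0.27, adjusted p = 0.0427, and 0.46, adjusted p = 0.00178) rose in both genotypes, while the HOXB genes fell. Of those listed for HOXD, ATP5G3 (0.32, adjusted p = 5.7e-04, and 0.40, adjusted p = 6.78e-05) and LNPK (0.42, adjusted p = 0.00197, and 0.34, adjusted p = 0.00921) rose in both. Of those listed for HOXA, JAZF1 fell (-0.56, adjusted p = 0.0138, and -0.84, adjusted p = 0.00103).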

How the data were processed

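RNA was sequenced in 12 libraries (4 groups of 3). Per the submitters' processing notes, the authors used Trim Galore, cutadapt, kallisto and DESeq2 with build GRCh38.p10, without versions. The authors deposited estimated counts per symbol, which were rounded here, and a normalized signal that equals the count divided by a gene- and library-specific factor, used here only in an alternative. The annotation and strand setting are not given in the sources used here. Groups came from the sample titles.

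Low counts were removed with filterByExpr over the 4 groups (21698 genes kept), libraries were scaled with TMM, and 1 model over all libraries was fitted by quasi-likelihood in edgeR 4.0.16 (R 4.3.3), a procedure tested on simulated data. Testing was planned for counts. Calls use a Benjamini-Hochberg adjusted p under 0.05 over all genes. SE is the absolute log2 fold change over the root of F, and the prior count was 0.125. Lengths are from GENCODE. Every tested member is named with its level, except 1 that is not reported here though it is in the counts, called members with their test, and up to 3 called genes of each other list with the smallest adjusted p with JQ1 in wild type; HOTAIR, HOXB-AS3, EZH2, PHF19, KMT2A, JAZF1, SNX11, CBX5, COPZ1, EN1, PDX1 and uncalled neighbours were named after their values were seen, and the paralogue ratios were likewise chosen then. The members and lists were chosen with earlier results of these data known. Alternatives were DESeq2 1.42.0, 3 other scalings, no filter, only the groups compared, the replicate number as a block and leaving out each library.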

Additional observations from a re-analysis of the deposited data

How the results depend on the processing

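Called HOX genes with JQ1 in wild type numbered 22 in the analysis reported and 19 to 24 when each of the 12 libraries was left out in turn. They numbered 21 to 27 under the other 7 alternatives, the most with library totals alone (25 lower, 2 higher). That scaling shifted the median of all genes by -0.13 in wild type and -0.12 in the knockout; relative to all genes the HOX median was then -0.40, as in the analysis reported. With JQ1 in the knockout there were 27 calls, 23 to 27 with a library left out and 20 with only the groups compared. The interaction had no call under any alternative run; it was not run with only the groups compared, since it needs all 4. Knockout against wild type with DMSO gave 4 calls, and 2 to 5 with a library left out. Without the low-count filter there were 5, HOXD3 being lower. Knockout against wild type with JQ1 gave 3 calls, 1 to 3 with a library left out, 1 with only the groups compared, and 2 with library totals or with the authors' factors. Without the low-count filter there were 4, HOXD3 again being lower. None of the called genes changed direction under an alternative. Same-numbered libraries did not deviate together (correlations of deviations -0.115 to 0.0786). With 3 libraries per group this cannot decide whether the numbers pair the samples. With the replicate number as a block the 5 counts were 22, 26, 2, 1 and 0. The paralogue pairs that differed numbered 21, and 16 to 21 with a library left out and 20 with a pseudocount of 1, alternatives chosen after seeing the data. With the longest transcript of any kind, the level of HOXB3 was 7.48 CPM per kb in wild type with DMSO. Depth limits HOXA7, HOXA9, HOXA11, HOXB1, HOXD1, HOXD3, HOXD4, HOXD11 and HOXD12, whose group means were all under 1 CPM.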
